A study of Mus musculus with 17 samples.

Results

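Neutrophil genes were examined in lung RNA of mice that drank water with or without perfluorooctanoic acid (PFOA). The 10 genes were chosen by name, from a list of genes known for expression in neutrophils. The rule used no measured value, but the list was drawn up with earlier results of these data known. They are *S100a8*, *S100a9*, *Retnlg*, *Csf3r*, *Mmp8*, *Mmp9*, *Trem1*, *Clec4d*, *Il1r2* and *Hdc*. These are 10 of the 31245 genes in the count table, and all 10 passed the minimum of 20 counts over the libraries. The 17 libraries, 1 per mouse, formed 6 groups by genotype and drinking water. Wild-type (WT) mice were Sv/129 mice bought from a vendor, the PPARα null (KO) and humanized PPARα (KI) mice were bred from heterozygous pairs, and PPARα is a nuclear receptor that regulates fatty acid metabolism. From 6 weeks of age the mice ate a diet modelled on American intake and drank water with 0.5% sucrose alone (vehicle) or with 6.2 μg/mL PFOA (Hi-PFOA in the labels), for 14 weeks. There were 2 WT vehicle libraries and 3 in each of WT PFOA, KO vehicle, KO PFOA, KI vehicle and KI PFOA. Libraries are named here by group and mouse number.

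Some features of the design touch every comparison. WT mice differed from KO and KI mice in origin as well as in genotype, and these cannot be told apart. Females gave all 6 KO libraries, and both sexes gave the WT and the KI libraries. The KO PFOA libraries shared 1 i5 index sequence that was absent from KO vehicle and was also used for WT PFOA 56 and KI vehicle 102. Within KO, exposure and this index cannot be told apart. Total counts ran from 4116118 to 9237356 per library (median 7524757), so that 3 counts amounted to 0.325 to 0.729 CPM (counts scaled to a common library size of 1e+06). WT vehicle 122 and KO vehicle 137 stood apart, with 65.3% and 61.3% of their counts in protein-coding genes against 74.4% to 80.4% in the other libraries. Reads summed over *Ppara*, the gene targeted in the KO, averaged 6.67 ± 0.763 CPM in WT vehicle (SD, n = 2), 10.4 ± 1.29 CPM in KO vehicle (SD, n = 3) and 14.4 ± 1.52 CPM in KI vehicle (SD, n = 3). They were thus not lower in the libraries labelled KO (8.82 to 11.7 CPM over all 6) than in WT (4.39 to 7.21 CPM). Which part of the gene was deleted is not given in the sources used here, and a total over the whole gene does not show it, so this sum does not check the KO label. WT, KO and KI below are the labels.

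Neutrophils are short-lived white blood cells that leave the bone marrow, circulate, and enter tissue in response to infection or injury. They carry large amounts of the calcium-binding proteins S100A8 and S100A9, depend on G-CSF and its receptor, and store matrix-degrading enzymes in granules. The lung vessels normally hold many neutrophils, so whole-lung RNA contains transcripts of both circulating and tissue neutrophils. In bulk RNA, a change in the number of such cells and a change in RNA per cell cannot be told apart.

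The 10 genes lie on 8 chromosomes and only *S100a8* and *S100a9* are neighbours. RefSeq promoter windows (GRCm38.p6, from 250 bases before to 50 bases after the annotated start) were found for 9 of the 10, the exception being *Mmp9*. They were searched on both strands for 3 short motifs: a C/EBP motif, TTNNGNAA (on the other strand it reads TTNCNNAA), the GAGGAA core of PU.1, an ETS factor (on the other strand it reads TTCCTC), and the TATA box, TATAAA (on the other strand it reads TTTATA). C/EBP factors and PU.1 are known regulators of neutrophil genes. The C/EBP motif was in 6 of the 9 windows and in 40.7% of all 27025 promoter windows. GAGGAA was in 5 of the 9 and in 28.3% of all windows, and TATAAA was in 3 of the 9 and in 14.2% of all. The following windows belong to genes on which the results turn, and include 1 without any of the motifs (*Hdc*). The *Hdc* window is that of the RefSeq start and lies inside the gene span that GENCODE gives, so it is not the sequence before the GENCODE start. Each is given 5′ to 3′ on the strand of the gene, with motif matches in capitals. Adjoining motifs in *S100a8* form 1 run of capitals without overlapping.
S100a8 (chr3:90668821-90669120, plus strand): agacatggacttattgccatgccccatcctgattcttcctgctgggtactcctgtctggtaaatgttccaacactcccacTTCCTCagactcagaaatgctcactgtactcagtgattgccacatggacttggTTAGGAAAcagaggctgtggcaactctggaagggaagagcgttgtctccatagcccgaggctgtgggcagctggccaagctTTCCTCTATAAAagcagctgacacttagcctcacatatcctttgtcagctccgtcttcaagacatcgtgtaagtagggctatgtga
S100a9 (chr3:90695672-90695971, minus strand): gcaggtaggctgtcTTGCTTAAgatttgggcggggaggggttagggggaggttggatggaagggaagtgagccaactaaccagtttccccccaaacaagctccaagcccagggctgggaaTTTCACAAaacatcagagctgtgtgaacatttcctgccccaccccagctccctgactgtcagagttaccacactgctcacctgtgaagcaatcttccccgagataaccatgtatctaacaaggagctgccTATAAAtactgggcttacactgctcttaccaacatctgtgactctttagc
Csf3r (chr4:126024409-126024708, plus strand): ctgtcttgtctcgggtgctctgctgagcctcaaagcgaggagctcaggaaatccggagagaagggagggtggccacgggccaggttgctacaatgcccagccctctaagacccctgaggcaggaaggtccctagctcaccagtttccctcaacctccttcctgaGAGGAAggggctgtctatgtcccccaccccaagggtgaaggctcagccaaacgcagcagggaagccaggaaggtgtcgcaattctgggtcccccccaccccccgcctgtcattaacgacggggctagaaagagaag
Mmp8 (chr9:7558179-7558478, plus strand): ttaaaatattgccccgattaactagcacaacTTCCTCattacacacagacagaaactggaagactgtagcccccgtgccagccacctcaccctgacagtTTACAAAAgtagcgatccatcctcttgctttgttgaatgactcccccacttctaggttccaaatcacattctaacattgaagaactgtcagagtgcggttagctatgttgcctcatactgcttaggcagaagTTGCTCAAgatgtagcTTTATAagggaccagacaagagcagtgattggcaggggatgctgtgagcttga
Hdc (chr2:126618629-126618928, minus strand): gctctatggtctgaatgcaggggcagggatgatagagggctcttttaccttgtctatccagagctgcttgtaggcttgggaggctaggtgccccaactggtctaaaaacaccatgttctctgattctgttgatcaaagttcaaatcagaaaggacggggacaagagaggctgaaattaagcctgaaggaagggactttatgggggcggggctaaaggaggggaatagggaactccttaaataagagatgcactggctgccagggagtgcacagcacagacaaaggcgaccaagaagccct
The matches describe these letters only. No binding was measured.

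By group mean, all the neutrophil genes but *Il1r2*, which was highest in KO vehicle, were highest in the KO mice on PFOA. In these 3 libraries 8 of the 10 genes were above every KO vehicle library, and *S100a9*, *Mmp9* and *Hdc* were above all 14 other libraries of the study. Neither count is a test: 6.82% of all genes tested were higher without overlap in KO PFOA than in KO vehicle, and 0.356% were above all other libraries in KO PFOA. In WT 1 of the 10 genes was higher without overlap (*Clec4d*), against 11.6% of all genes, and 1 was lower (*Hdc*), against 10.9%. In KI 0 of the 10 were higher, against 4.45% of all genes, and 0 were lower, against 3.78%. No gene of the 10 passed the threshold for PFOA against vehicle in any genotype (edgeR's quasi-likelihood test, a Benjamini-Hochberg adjusted p below 0.2 together with a more than 2-fold difference), so that no rise on PFOA was called.

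**Figure D1:**
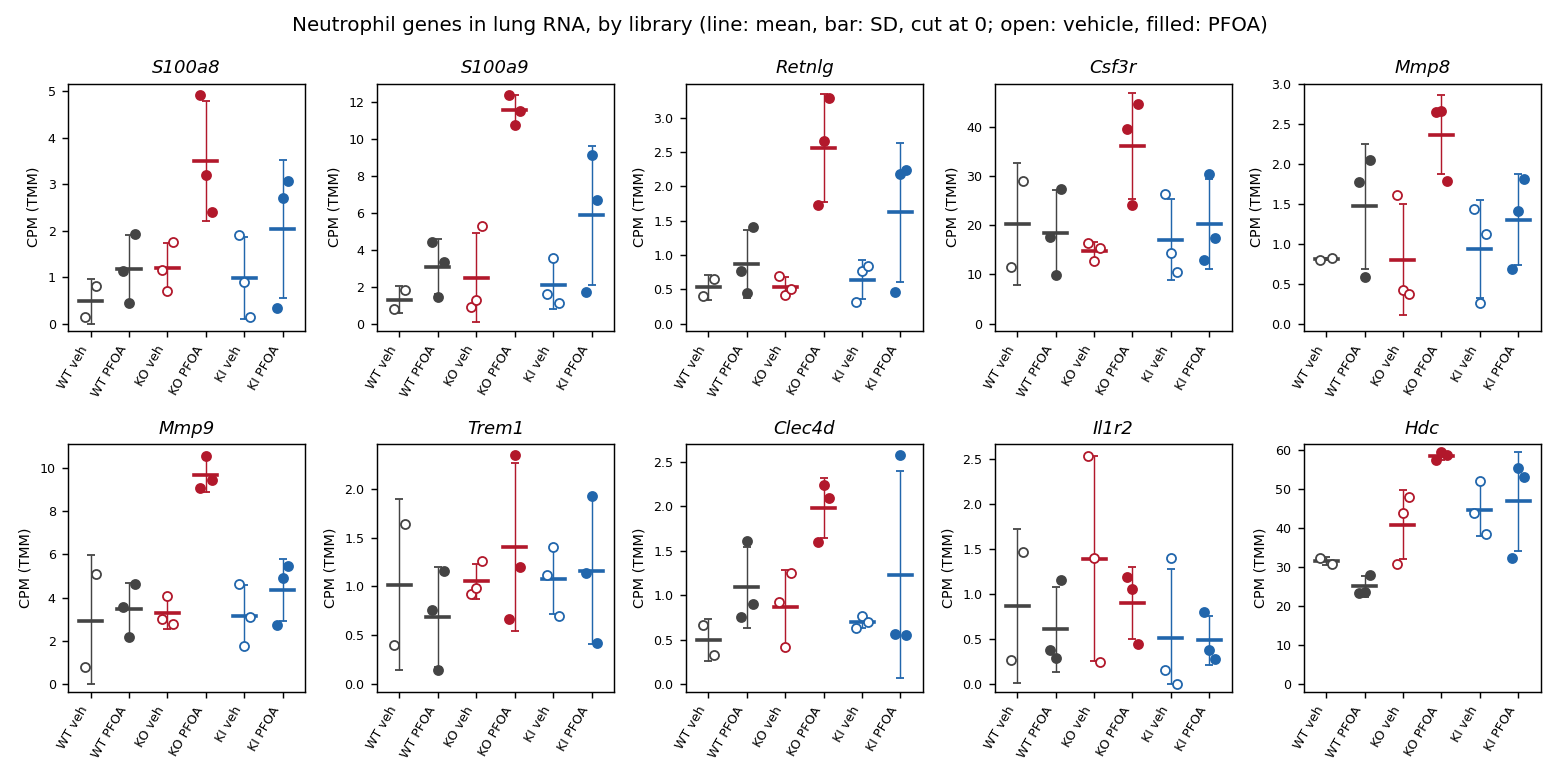
Level of each of the 10 neutrophil genes (CPM, TMM-scaled, linear axis) in the 17 libraries, by group (veh, vehicle). Open points are vehicle and filled points PFOA libraries, horizontal lines are group means, and bars are the SD, drawn no lower than 0. The KO PFOA libraries of *S100a9* (10.8 to 12.4 CPM), *Mmp9* (9.04 to 10.5 CPM) and *Hdc* (57.4 to 59.4 CPM) lie above all other points of their panels.

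*S100a8* and *S100a9* encode the 2 subunits of calprotectin, an abundant cytosolic protein of neutrophils. *S100a9* (chr3:90692632-90695721, minus strand) had 1.80 and 0.799 CPM in WT vehicle 122 and 107, and 4.44, 1.46 and 3.34 CPM in WT PFOA 50, 56 and 65. In KO vehicle 137, 145 and 149 it had 0.921, 1.27 and 5.27 CPM, and in KO PFOA 52, 154 and 155 it had 12.4, 10.8 and 11.5 CPM. In KI vehicle 102, 116 and 135 it had 1.59, 3.56 and 1.12 CPM, and in KI PFOA 57, 80 and 139 it had 1.71, 9.12 and 6.71 CPM. The KO PFOA libraries were close to each other and stood above KO vehicle 149 by more than the range of KO vehicle, the highest of its group, while in WT and KI 1 PFOA library overlapped vehicle. By mean the order was KO PFOA (11.5 ± 0.802 CPM, SD, n = 3), KI PFOA (5.85 ± 3.78), WT PFOA (3.08 ± 1.50), KO vehicle (2.49 ± 2.42), KI vehicle (2.09 ± 1.29) and WT vehicle (1.30 ± 0.709, n = 2). Of the neighbours in this order, only KO PFOA and KI PFOA did not overlap. The log2 fold change on PFOA was 2.12 ± 0.59 (SE) in KO, 1.44 ± 0.61 in KI and 1.28 ± 0.78 in WT. The unadjusted p was 0.00204 in KO, 0.0289 in KI and 0.118 in WT, and the adjusted p (edgeR) was 0.464, 1 and 0.743.

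The levels of *S100a8* (chr3:90668978-90670035, plus strand) were lower and rested on few reads. WT vehicle 107 and 122 had 0.133 and 0.819 CPM, and WT PFOA 50, 56 and 65 had 1.14, 0.439 and 1.93 CPM. KO vehicle 137, 145 and 149 had 1.15, 0.704 and 1.76 CPM, against 4.92, 3.19 and 2.39 CPM in KO PFOA 52, 154 and 155. KI vehicle 102, 116 and 135 had 1.91, 0.891 and 0.141 CPM, against 0.343, 2.70 and 3.07 CPM in KI PFOA 57, 80 and 139. Exposed and vehicle libraries were apart in KO and overlapped in WT and KI. WT vehicle 107 and KI vehicle 135 each held a single read of the gene, below the 3-count floor. Fitted log2 fold changes were 1.51 ± 0.75 (SE) in KO, 1.35 ± 1.02 in WT and 1.05 ± 0.78 in KI, with adjusted p of 0.525, 0.800 and 1 (edgeR). Over all libraries *S100a9* had 2.88 times the reads of *S100a8*, and it had more reads in 15 of the 17 libraries. KI vehicle 102 (10 reads of *S100a9* against 12) and KO vehicle 137 (4 against 5) were the exceptions.

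*Csf3r* (chr4:126024550-126044440, plus strand), the receptor for G-CSF, is the gene with the most reads after *Hdc*. It had 11.5 and 29.0 CPM in WT vehicle 107 and 122, and 17.6, 9.94 and 27.4 CPM in WT PFOA 50, 56 and 65. KO vehicle 137, 145 and 149 had 16.4, 12.8 and 15.3 CPM, and KO PFOA 52, 154 and 155 had 39.5, 24.1 and 44.7 CPM. The values were 26.3, 14.3 and 10.5 CPM in KI vehicle 102, 116 and 135, and 13, 30.5 and 17.3 CPM in KI PFOA 57, 80 and 139. All KO PFOA libraries were above all KO vehicle libraries, and the WT and KI groups overlapped widely. WT vehicle 122 had the highest WT value and WT PFOA 56 the lowest. The log2 fold change on PFOA was 1.28 ± 0.41 (SE) in KO, -0.13 ± 0.45 in WT and 0.26 ± 0.40 in KI, with adjusted p of 0.469, 0.967 and 1 (edgeR). The effect in KO exceeded that in WT by 1.41 ± 0.60 on the log2 scale, with an unadjusted p of 0.0309 and an adjusted p of 0.669. Without WT vehicle 122 and KO vehicle 137 this difference was 0.67.

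The other cytokine and activating receptors of the list were sparse. *Il1r2* (chr1:40074079-40125231, plus strand), a decoy receptor that binds interleukin-1 without signalling, had 0 to 2.53 CPM and at most 11 reads in a library. Its KO vehicle libraries held 2.53, 1.41 and 0.251 CPM, KO PFOA held 1.20, 1.06 and 0.449 CPM, and no read was found in KI vehicle 135, which allows up to 0.427 CPM. *Trem1* (chr17:48232768-48246924, plus strand), an activating receptor of neutrophils and monocytes, had 0.146 to 2.34 CPM, with the lowest in WT PFOA 56 and the highest in KO PFOA 154. Exposed and vehicle libraries of both genes overlapped in all 3 genotypes. The log2 fold change in KO was -0.55 ± 0.98 (SE) for *Il1r2* and 0.41 ± 0.71 for *Trem1*, smaller than its SE in either case. Both overlap other annotated genes, *Trem1* a processed pseudogene on the other strand and *Il1r2* an antisense and an unverified transcript. How strand was used in the counting is not given in the sources used here, so reads of these partners cannot be told apart.

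*Clec4d* (chr6:123262111-123275265, plus strand) encodes a C-type lectin that recognises fungal and mycobacterial glycolipids. It had 0.666 and 0.328 CPM in WT vehicle 107 and 122 and 0.760, 1.61 and 0.900 CPM in WT PFOA 50, 56 and 65. In KO it had 0.921, 0.422 and 1.26 CPM on vehicle and 1.59, 2.24 and 2.09 CPM on PFOA. In KI vehicle it stayed between 0.637 and 0.764 CPM, and KI PFOA 80 had 2.57 CPM while KI PFOA 57 and 139 had 0.571 and 0.559 CPM. It was the only member whose PFOA libraries were above vehicle in both WT and KO, and 1 library carried the higher KI mean. On PFOA the log2 fold change was 1.17 ± 0.63 (SE) in KO, 1.07 ± 0.78 in WT and 0.79 ± 0.65 in KI, with adjusted p of 0.542, 0.787 and 1 (edgeR).

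Secreted products of neutrophils gave a like picture. *Retnlg* (chr16:48872621-48874496, plus strand), a resistin-like hormone made by mouse neutrophils, had 0.400 and 0.655 CPM in WT vehicle and 0.439 to 1.41 CPM in WT PFOA. KO vehicle 137, 145 and 149 had 0.691, 0.422 and 0.502 CPM, and KO PFOA 52, 154 and 155 had 1.73, 2.66 and 3.29 CPM. KI vehicle had 0.318 to 0.844 CPM, and KI PFOA 57, 80 and 139 had 0.457, 2.18 and 2.24 CPM. Exposed KO libraries were all above 1 CPM, and of the other 14 libraries only WT PFOA 65, KI PFOA 80 and KI PFOA 139 were. Its log2 fold change in KO, 2.25 ± 0.66 (SE, unadjusted p 0.00299, adjusted p 0.469, edgeR), was the largest of the 10 genes, and was 0.73 ± 0.78 in WT and 1.29 ± 0.64 in KI.

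Both matrix metalloproteinases of the list are stored in neutrophil granules and cut collagens (*Mmp8*, a collagenase, and *Mmp9*, a gelatinase). *Mmp9* (chr2:164940780-164955850, plus strand) had 0.799 and 5.08 CPM in WT vehicle 107 and 122, and 3.55, 2.19 and 4.63 CPM in WT PFOA 50, 56 and 65. KO vehicle 137, 145 and 149 had 2.99, 4.08 and 2.76 CPM, and KO PFOA 52, 154 and 155 had 9.04, 10.5 and 9.42 CPM. KI libraries had 1.78 to 4.62 CPM on vehicle and 2.74 to 5.45 CPM on PFOA. The KO PFOA values lay in a narrow band above all others, and the next highest library was KI PFOA 139. *Mmp8* (chr9:7558456-7568485, plus strand) had 0.799 and 0.819 CPM in WT vehicle, 0.585 to 2.06 CPM in WT PFOA, 0.255 to 1.43 CPM in KI vehicle and 0.685 to 1.82 CPM in KI PFOA. In KO it had 1.61, 0.422 and 0.377 CPM on vehicle and 2.66, 2.66 and 1.79 CPM on PFOA, apart by the small gap between KO vehicle 137 and KO PFOA 155. The log2 fold change in KO was 1.55 ± 0.46 (SE) for *Mmp9* and 1.68 ± 0.68 for *Mmp8*, with unadjusted p of 0.00306 and 0.0233 and adjusted p of 0.469 and 0.483 (edgeR). In WT it was 0.28 ± 0.54 and 0.86 ± 0.76, and in KI 0.47 ± 0.47 and 0.48 ± 0.67.

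*Hdc* (chr2:126593667-126619299, minus strand) encodes histidine decarboxylase, the enzyme that makes histamine, and is also known in mast cells and basophils. It had 32.2 and 30.8 CPM in WT vehicle 107 and 122, and 23.4, 23.7 and 28.0 CPM in WT PFOA 50, 56 and 65. KO vehicle 137, 145 and 149 had 30.9, 43.8 and 47.8 CPM, and KO PFOA 52, 154 and 155 had 57.4, 59.4 and 58.8 CPM. KI vehicle 102, 116 and 135 had 43.8, 52.1 and 38.4 CPM, and KI PFOA 57, 80 and 139 had 32.3, 55.2 and 53.1 CPM. Every WT PFOA library was below both WT vehicle libraries, every KO PFOA library was above every KO vehicle library, and the KI groups overlapped. In log2 terms the fold change was 0.51 ± 0.19 (SE) in KO, -0.33 ± 0.22 in WT and 0.07 ± 0.19 in KI, with adjusted p of 0.477, 0.756 and 1 (edgeR). The effect in KO exceeded that in WT by 0.84 ± 0.29 on the log2 scale, with an unadjusted p of 0.00928 and an adjusted p of 0.669. In the list of mast cell and basophil genes, 1 of 9 tested (*Gata2*) had an unadjusted p under 0.05 in KO, the summed level was 166 to 315 CPM in KO vehicle and 229 to 322 CPM in KO PFOA, and *Kit* and *Gata2*, which lung cells of other types also express, made up most of it. Genes more particular to these cells were low and went both ways in KO. *Cma1* averaged 0.521 ± 0.391 CPM on vehicle and 1.45 ± 0.560 CPM on PFOA, and *Ms4a2* 0.468 and 1.64 CPM. *Mcpt4* averaged 0.272 CPM on vehicle and was at 0 in all KO PFOA libraries. Means were also lower on PFOA for *Tpsab1* (0.711 CPM on vehicle and 0.0853 CPM on PFOA), *Cpa3* (0.899 and 0.802 CPM) and *Tpsb2* (0.614 and 0.556 CPM). None of these passed the test in KO.

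**Figure D2:**
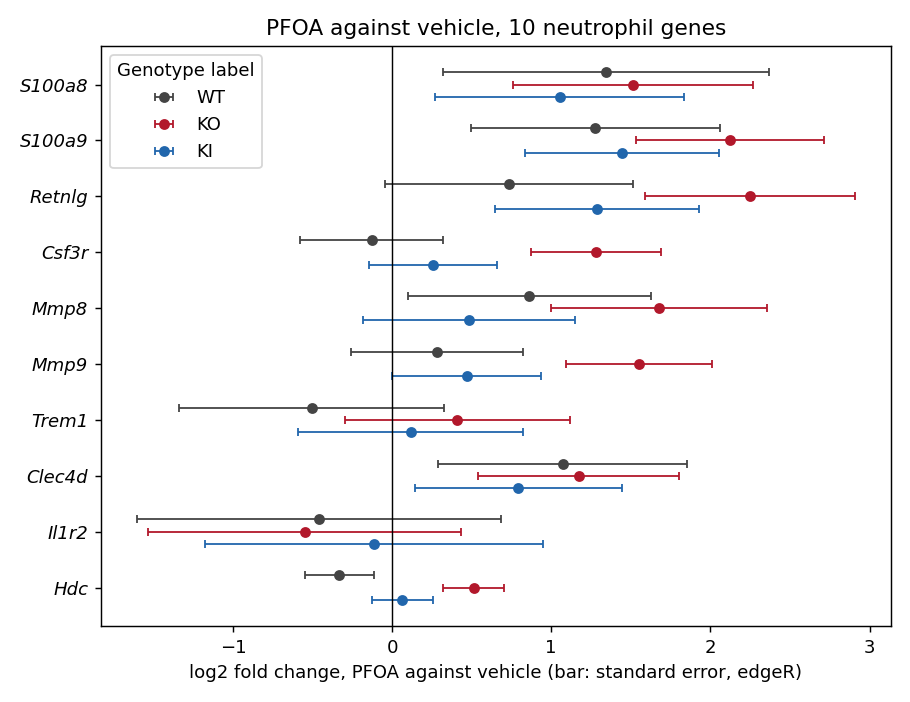
Log2 fold change on PFOA for each of the 10 genes by genotype (edgeR estimates), with bars of 1 standard error to either side. In KO the points of *S100a9* and *Retnlg* lie beyond 2 and those of 4 further genes (*Mmp8*, *Mmp9*, *S100a8* and *Csf3r*) between 1.28 and 1.68, and no adjusted p was under 0.2.

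Counted over the comparison, 6 of the 10 genes had an unadjusted p under 0.05 in KO and were higher on PFOA (*Csf3r*, *Hdc*, *Mmp8*, *Mmp9*, *Retnlg* and *S100a9*), against 3.74% of all 26946 genes tested. In WT 0 of the 10 did, against 3.12% of all genes, and in KI 1 did (*S100a9*), against 1.47%. None was lower at this level in any genotype, against 6.06% of all genes in KO, 4.23% in WT and 1.12% in KI. The median log2 fold change of the 10 was 1.40 in KO, 0.51 in WT and 0.48 in KI, beside medians over all genes of -0.03, 0.04 and 0.01. The WT median was 0.060 without WT vehicle 107, 0.11 without WT PFOA 65 and 0.99 without WT vehicle 122. The KI median was 0.20 without KI PFOA 80, 0.76 without KI PFOA 57 and 0.78 without KI vehicle 102, and the KO median stayed between 1.20 and 1.50 without any 1 KO library. When the i5 index entered the model, 3 of the 10 (*Hdc*, *Retnlg* and *S100a9*) had an unadjusted p under 0.05 in KO and the median was 1.14. Of all 26946 genes, 1968 had such a p in this fit, counting both directions. The index of the KO PFOA libraries was absent from KO vehicle, so its term rested on the libraries outside KO that carried it. This fit therefore cannot separate exposure from index within KO. Without KO vehicle 137, 5 of the 10 had an unadjusted p under 0.05 in KO and 8 of the 10 still did not overlap.

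The counts without overlap in WT and KI turned on single libraries. Without WT vehicle 122, 6 of the 10 genes were higher without overlap in WT PFOA (*S100a8*, *S100a9*, *Retnlg*, *Mmp9*, *Clec4d* and *Il1r2*) and 1 was lower (*Hdc*), against 22.5% and 25.3% of all genes. Without WT vehicle 107 in its place, 1 was higher and 5 were lower, against 34.4% and 31.5% of all genes. Without WT PFOA 56, 5 were higher, against 18.5%. Without KI PFOA 57, 5 of the 10 were higher without overlap in KI PFOA (*S100a8*, *S100a9*, *Retnlg*, *Mmp9* and *Hdc*), against 8.84% of all genes. Without KI vehicle 116, 2 were higher, against 9.75%, and without KI PFOA 80, 1 was lower (*Clec4d*), against 7.43%. In KO the same 8 genes were higher whichever KO library was left out, against 10.2% to 12.2% of all genes. *Il1r2* was lower without overlap there when KO vehicle 149 was left out, against 13.9% of all genes.

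None of the 10 genes, and 0% of all genes tested, passed the threshold of adjusted p and fold with edgeR in any of the 3 genotypes. DESeq2 on the same genes called 0 of the 10 in each, beside 0.0891% of all genes in WT, 0.252% in KO and 0.00371% in KI. Nor was any of the 10, or any other gene (0%), called for the difference of the KO or the KI effect from the WT effect. At an unadjusted p under 0.05 the KO effect exceeded the WT effect for 2 of the 10 (*Csf3r* and *Hdc*), against 2.56% of all genes. At this level the KI effect differed from the WT effect for 0 of the 10, while it was higher for 2.19% of all genes and lower for 2.39%. DESeq2 called 0 of the 10 for both differences, and of all 26946 genes tested it called 3 for the KO and 1 for the KI difference.

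Taking the 3 genotypes in 1 additive model, 9 of the 10 genes had a higher level on PFOA, *Il1r2* being the exception, against 48.2% of all genes. The log2 fold change was 1.68 ± 0.37 (SE) for *S100a9*, 1.50 ± 0.40 for *Retnlg*, 1.30 ± 0.46 for *S100a8*, 1.01 ± 0.40 for *Mmp8*, 1.01 ± 0.38 for *Clec4d* and 0.83 ± 0.30 for *Mmp9*. These 6 had an unadjusted p under 0.05, against 3.8% of all genes, and the adjusted p ran from 0.317 for *S100a9* to 0.532 for *Mmp8* (edgeR). No gene of the 10 and 0% of all genes were called. DESeq2 called *S100a9* and *Retnlg* (adjusted p 0.0334 and 0.184), 2 of the 10 beside 0.0965% of all genes. Leaving out KI PFOA 57, KI vehicle 102 or KI PFOA 139 gave 1 call among the 10 with edgeR, *S100a9*, with adjusted p of 0.116, 0.2 and 0.162. Over all genes tested these fits called 6, 20 and 35.

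A summary level per library, the mean of the 10 log2 CPM values after each gene was centred on its mean over the 17 libraries, was 1.02, 0.91 and 0.86 in KO PFOA 154, 52 and 155. These were the 3 highest of the 17. They were followed by KI PFOA 80 (0.68), WT PFOA 65 (0.29) and KI PFOA 139 (0.25). The highest vehicle library was WT vehicle 122 (-0.08). The lowest were WT vehicle 107 (-0.98), WT PFOA 56 (-0.75) and KI vehicle 135 (-0.68). These ranks put WT vehicle 122 and KO vehicle 137 (-0.09), which stood apart in composition, at 7 and 8. The libraries outside KO with the index of KO PFOA ranked 11 (KI vehicle 102) and 16 (WT PFOA 56). The sum of the 8 genes other than *Hdc* and *Csf3r* was 32.1 to 35.5 CPM in KO PFOA and 9.71 to 13.4 CPM in KO vehicle.

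**Figure D3:**
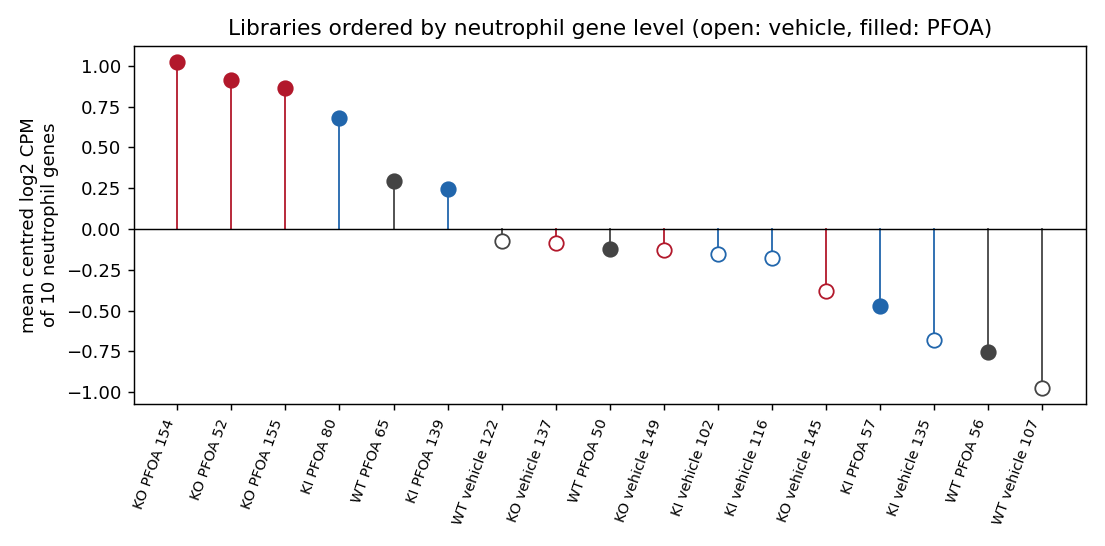
Mean centred log2 CPM of the 10 neutrophil genes in each of the 17 libraries, ordered from high to low (open, vehicle; filled, PFOA; dark grey WT, red KO, blue KI). The 3 KO PFOA libraries (0.86 to 1.02) are at the high end, and KI PFOA 57 (-0.47) and WT PFOA 56 (-0.75) lie among the vehicle libraries.

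The 10 genes varied together to different degrees across the 17 libraries. The correlation of log2 CPM with the mean of the other 9 was highest for *S100a8* (Pearson's r = 0.87), *Mmp9* (0.83), *S100a9* (0.83), *Csf3r* (0.82) and *Retnlg* (0.82). It was lower for *Hdc* (0.60), *Mmp8* (0.59), *Clec4d* (0.55) and *Trem1* (0.45) and least for *Il1r2* (0.15), the gene with the fewest reads. Of the 45 pairs 43 had r above 0, with a median of 0.49, from -0.09 for *Clec4d* and *Il1r2* to 0.84 for *S100a8* and *S100a9*. Taken as deviations from the group means, *S100a8* (0.79) and *Csf3r* (0.79) remained closest to the rest and *Clec4d* had r = 0.03. All points share library depth, composition and group, so these values are descriptions over 17 libraries.

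Outside the list, the 10 genes whose level followed this mean most closely, of 15507 that averaged 20 counts or more per library, were *Lilra6* (r = 0.85), *Trim30b* (0.84), *Il1b* (0.83), *Slfn4* (0.83), *Slfn1* (0.82), *H2-Q10* (0.82), *Cxcr2* (0.81), *Arl5c* (0.80), *Bak1* (0.79) and *Ms4a4b* (0.78). *Cxcr2* encodes the chemokine receptor that draws neutrophils to inflamed tissue, and *Il1b* the cytokine interleukin-1β. *Cxcr2* had a mean of 2.58 ± 1.16 CPM in KO vehicle and 7.26 ± 2.67 CPM in KO PFOA (SD, n = 3), and *Il1b* 4.41 ± 0.785 and 10.6 ± 0.731 CPM. Their log2 fold change in KO was 1.52 ± 0.47 and 1.28 ± 0.54 (SE), with adjusted p of 0.469 and 0.488 (edgeR). The others had 1.92 ± 0.46 (*Slfn4*), 1.79 ± 0.35 (*Slfn1*), 1.35 ± 0.27 (*Ms4a4b*), 1.17 ± 0.46 (*Trim30b*) and 1.01 ± 0.39 (*H2-Q10*) in KO. *Arl5c* had 0.87 ± 0.46, *Lilra6* 0.69 ± 0.35 and *Bak1* 0.52 ± 0.17. The adjusted p of these others ran from 0.434 to 0.535 (edgeR). All 10 were picked for following a mean that was highest in the KO PFOA libraries. Higher levels in KO PFOA were thus partly built in by the choice, and these fold changes are no separate test. In WT the log2 fold change was negative for *Il1b* and *H2-Q10* and positive for the rest. Taken as deviations from the group means, r ran from 0.51 (*Bak1*) to 0.88 (*H2-Q10*).

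Per kb of exon, *S100a9* had the highest mean level of the 10 (8.76 CPM per kb), followed by *Hdc* (6.55), *Csf3r* (5.87), *S100a8* (2.34), *Retnlg* (1.96) and *Mmp9* (1.29). *Clec4d* (0.68), *Mmp8* (0.54), *Il1r2* (0.42) and *Trem1* (0.36) were lower. *Hdc* held 5254 and *Csf3r* 2616 of the reads over all libraries, and the other 8 genes between 94 (*Il1r2*) and 594 (*S100a9*), so that their fold changes have wide errors.

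Genes outside the list that are known from mature neutrophils were examined next. All 17 of those tested had a positive log2 fold change in KO (median 0.90), and 7 had an unadjusted p under 0.05 (4 without KO PFOA 52, KO vehicle 145 or KO vehicle 149), among them *Lrg1* (0.90 ± 0.23, SE) and *Mxd1* (0.35 ± 0.16). None was called by edgeR, and DESeq2 called 1. Granule genes, which are transcribed mainly in bone marrow precursors, gave a mixed picture: 3 of 8 were higher in KO PFOA, with a median of -0.35, but without KO vehicle 137 6 of the 7 then tested were higher, with a median of 0.69. Their summed level was 88.9 to 113 CPM in KO vehicle and 186 to 209 CPM in KO PFOA. By group mean, *Chil3* (59.0 and 134 CPM) and *Lcn2* (19.2 and 38.4 CPM) made up most of it. Of the granule genes *Chil3* (1.17) and *Lcn2* (0.97), which lung macrophages and epithelium also make, had an unadjusted p under 0.05 and *Ltf* had a log2 fold change of 0.16. Of the ligands and cytokines that recruit neutrophils or prolong their life, 1 of 8 was higher in KO PFOA and the median was -1.34. Without KO vehicle 137, 2 of the 7 then tested were higher and the median was -0.37. The one with the most reads, *Il1a*, had 6.97 ± 2.22 CPM in KO vehicle and 3.06 ± 1.29 CPM in KO PFOA (SD, n = 3), with an adjusted p of 0.473 (edgeR). Of the neutrophil transcription factors 4 of 5 were higher in KO PFOA (median 0.48), 3 of them at an unadjusted p under 0.05 (*Cebpd* 1.01, *Spi1* 0.90 and *Cebpb* 0.48), and *Runx1* had -0.19. Of 14 partners and inhibitors of the members 9 were higher (median 0.21), 3 at this level (1 without KO vehicle 137, with a median of 0.07), among them *Syk* (0.72), a kinase downstream of Clec4d, while *Timp2* (0.34), an inhibitor of metalloproteinases, and *Ager* (0.27), a receptor of S100 proteins that alveolar epithelium expresses, were not. None of these was called (edgeR). *Ly6g*, a surface marker of mouse neutrophils, was on the list of other mature neutrophil genes but absent from the count table, so it was not analysed.

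Markers of other blood cells were also compared, and none was called in KO (edgeR). All 5 T cell genes had an unadjusted p under 0.05 and were higher in KO PFOA (median log2 fold change 1.08), and their summed level was 13.1 to 20.6 CPM in KO vehicle and 27.3 to 45.6 CPM in KO PFOA. Without KO vehicle 145 or KO PFOA 155, 3 of the 5 had such a p. Alveolar macrophage genes (2 of 10 at this level) summed to 92.1 to 202 and to 250 to 285 CPM, and platelet genes (3 of 5) to 10.3 to 15.2 and to 21.2 to 38.0 CPM. Monocyte genes were all higher in KO PFOA (9 of 9, median 0.71), 3 of them at this level. Their sums overlapped, with at most 1158 CPM in KO vehicle and 1069 to 1332 CPM in KO PFOA. *Ace*, which averaged 1019 CPM over all libraries, made up most of these sums, and it overlapped. Without overlap were *Csf1r* (39.8 to 86.4 CPM in KO vehicle and 93.6 to 105 CPM in KO PFOA) and *Ccr2* (18.4 to 42.1 and 46.1 to 67.4 CPM). So were *Plac8* (2.53 to 5.15 and 7.13 to 15.1 CPM) and *Ly6c2* (3.10 to 4.15 and 4.37 to 11.7 CPM). The rest of the monocyte list went both ways, and 6.82% of all genes were higher without overlap in KO PFOA. Without KO vehicle 137 the macrophage median was 0.29 in place of 0.57, and without KO vehicle 145 no platelet gene had an unadjusted p under 0.05. The 5 B cell genes were all higher in KO PFOA (median 1.03) with none at this level, and summed to 21.7 to 40.7 and to 47.9 to 104 CPM. No T cell, macrophage or monocyte marker was at 0 in any library, and *Gp1bb* of the platelet list was at 0 in all KO libraries. No eosinophil gene of the 4 tested had an unadjusted p under 0.05. The lung identity of all libraries was plain from epithelial genes such as *Sftpc*, *Sftpb* and *Scgb1a1*, whose list had 0 of 7 genes at this level in KO (2 without KO vehicle 149). The part of these cells in the neutrophil gene levels was not tested.

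**Figure D4:**
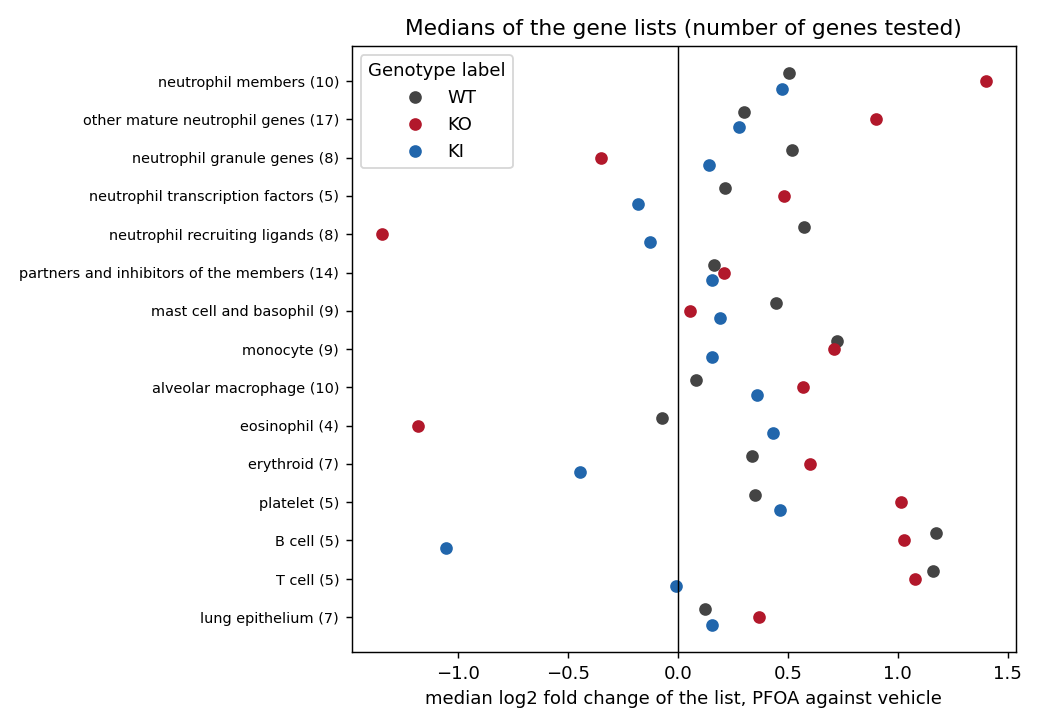
Median log2 fold change on PFOA, by genotype, for the 10 neutrophil genes (top) and 14 other gene lists, with the number of genes tested in brackets. In KO the neutrophil genes have the highest median (1.40), followed by T cell (1.08), B cell (1.03) and platelet genes (1.02). The other mature neutrophil genes are at 0.90, and the recruiting ligands at -1.34 (-0.37 without KO vehicle 137). Without KO vehicle 149 the platelet median (1.43) is above that of the neutrophil genes (1.37).

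Genotype was compared at equal weight of both exposures. *S100a9* was called in KO against WT (log2 fold change 1.47 ± 0.49, SE, adjusted p 0.152, edgeR), 1 of the 10 beside 2.9% of all genes. The groups overlapped, with 0.921 to 12.4 CPM in KO and 0.799 to 4.44 CPM in WT. The call was lost with sex (adjusted p 0.550) or i5 index (0.651) as a covariate, and when any of 8 libraries was left out: WT PFOA 56 or 65, WT vehicle 107 or 122, KO vehicle 149, or KO PFOA 52, 154 or 155. Among these the largest shift was without KO vehicle 149, with a log2 fold change of 0.86 and an adjusted p of 0.442. *Mmp9* was called (1.76, adjusted p 0.0336) when WT vehicle 122 was left out. At an unadjusted p under 0.05, 4 of the 10 were higher in KO (*Hdc*, *Mmp9*, *S100a8* and *S100a9*), against 8.24% of all genes. All 10 log2 fold changes were positive, against 53.5% of those of all genes. B cell genes moved with both genotypes (5 of 5 called higher in KO and in KI than in WT), and their part in these levels was not tested.

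*Hdc* had the smallest p of the 10 in both genotype comparisons with WT, but a fold under 2. Its log2 difference was 0.80 ± 0.15 (SE) in KO and 0.70 ± 0.15 in KI, with adjusted p of 0.00636 and 0.0218 (edgeR). All 6 KI libraries were above all 5 WT libraries, by a small margin (lowest KI 32.3 CPM in KI PFOA 57, highest WT 32.2 CPM in WT vehicle 107). Of the 10 genes 1 (*Hdc*) was higher without overlap in KI than in WT, against 0.943% of all genes tested. In KO 5 of 6 libraries were above all WT libraries, KO vehicle 137 (30.9 CPM) being the exception. Of the 9 mast cell and basophil genes tested, *Cma1*, a mast cell protease, was called higher in both KO and KI (adjusted p 0.0814 and 0.0587, edgeR). It was at 0 in both WT vehicle libraries, between 0.146 and 0.380 CPM in WT PFOA and between 0.141 and 3.88 CPM in the KO and KI libraries, which overlap, and its part in the level of *Hdc* was not tested. With sex as a covariate the adjusted p of *Hdc* was 0.0781 in KO and 0.0497 in KI. With the index as the covariate the adjusted p of *Hdc* was 0.390 and 0.348. The other 9 genes were not called in KI against WT, where 0 of the 10 and 1.61% of all genes were called and 1 of the 10 (*Hdc*), against 6.35% of all genes, was higher at an unadjusted p under 0.05. DESeq2 also called 0 of the 10 there, beside 475 of the 26946 genes tested. No gene of the 10 was above all WT libraries in both KO and KI, against 0.412% of all genes. Between KI and KO 0 of the 10 were called, with 0.00742% of all genes called. At an unadjusted p under 0.05 there were 0 of the 10, against 2.39% of all genes higher in KI and 2.35% lower. DESeq2 called 0 of the 10 and 11 of all genes tested.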

How the data were processed

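Total RNA of whole lung (6 groups, 17 mice) was made into stranded total RNA libraries by the authors, who trimmed the reads, used Partek Flow for alignment (STAR 2.6, mm10) and for quantification of genes by expectation maximization. The deposited values are estimated counts per gene without normalization, and 31.3% of the table's cells are not exact whole numbers. The annotation release is not given in the sources used here. There were 0 sample columns beyond those of the listed samples.

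Values were rounded to whole counts. The tests took in the 26946 genes that reached 20 counts in total, and 4299 did not reach it. edgeR 4.0.16 (R 4.3.3) fitted 1 coefficient per group over all libraries (TMM, quasi-likelihood test), or additive terms for genotype and exposure, with Benjamini-Hochberg adjustment over all genes tested. Genes were called at an adjusted p below 0.2 with a more than 2-fold difference, and DESeq2 1.42.0 was an alternative. Other alternatives were other scaling and filters, sex or i5 index as a covariate, fewer groups in the fit, each library left out, and a stricter threshold. The tests were checked on simulated data. CPM values are TMM-scaled and log2 CPM used a prior count of 2. The 3-count floors cover counting error only. Each library is 1 mouse, and the p-values measure the spread between these mice. Replicate libraries differed by more than sampling noise (chi-square per degree of freedom of at least 6.28).

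Named genes were the 10 listed, and of each of the 14 other lists the 3 of highest mean CPM and up to 3 called per comparison. The 10 genes of highest correlation with the mean of the neutrophil genes were also named. Of the other mature neutrophil genes 1 that the rule names is not reported here. *Mcpt4*, *Ms4a2*, *Tpsab1*, *Cpa3*, *Tpsb2* and *Spi1* were named after their values were seen. *Ly6g*, which has no row in the count table, was also named outside the rule. The members and lists were chosen with earlier results of these data known. Gene positions are from GENCODE M21, in which 96.7% of the gene names were found once. Promoter windows and their build are from RefSeq.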

Additional observations from a re-analysis of the deposited data

Results flagged for a closer look

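The effect of PFOA on *Hdc* in KO minus that in WT was 0.84 on the log2 scale. It was flagged because every WT PFOA library was below both WT vehicle libraries and every KO PFOA library was above every KO vehicle library. Of all genes tested, 10.9% were lower without overlap in WT PFOA and 6.82% were higher without overlap in KO PFOA. The difference was tested in edgeR and had an unadjusted p of 0.00928 and an adjusted p of 0.669, which does not pass the threshold. It was 0.68 to 0.97 when each library was left out in turn, 0.81 when sex was a covariate and 1.17 when the i5 index was. Groups of 2 or 3 libraries are too small for a test of single outlying libraries.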

How the results depend on the processing

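No gene of the 10 was called for PFOA over the 3 genotypes with edgeR, against 2 with DESeq2, 1 with its default filters and 0 to 1 when each library was left out. For KO against WT the 1 call became 0 with sex or the i5 index as a covariate or at an adjusted p under 0.05, 2 without WT vehicle 122 and KO vehicle 137, and 0 to 1 when each library was left out. The cause was not tested. Of 1892 alternative values for 72 results, 59 turned the sign, 54 of them for results under 0.5 in size, in 24 results.

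Without WT vehicle 122 and KO vehicle 137, the sign turned for *Csf3r* in WT (0.68) and KI against WT (0.35), *Mmp8* in KO against WT (-0.14) and KI against KO (0.14), *Trem1* in WT (0.79), and *Il1r2* in WT (1.16), in KO (0.16), over the 3 genotypes (0.21) and in KI against WT (0.34). With the i5 index it turned for *Csf3r* (0.12), *Clec4d* (-0.027) and *Il1r2* (0.26) in KI against WT, *Trem1* in KI (-0.38) and over the 3 genotypes (-0.068), and *Il1r2* in WT (0.28), and with sex for *Csf3r* in KI against WT (0.070).

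Leaving out each library gave these ranges where a sign turned. For PFOA in WT they were -0.66 to 0.68 (*Csf3r*), -0.54 to 2.10 (*Mmp9*), -1.21 to 0.78 (*Trem1*) and -1.29 to 1.16 (*Il1r2*). In KO they were -0.20 to 0.74 (*Trem1*) and -1.08 to 0.15 (*Il1r2*), and over the 3 genotypes -0.16 to 0.34 and -0.57 to 0.022. In KI they were -0.16 to 0.70 (*Csf3r*), -0.43 to 0.50 (*Trem1*), -0.31 to 1.14 (*Clec4d*), -0.68 to 2.46 (*Il1r2*) and -0.071 to 0.27 (*Hdc*). For KO against WT they were -5.246e-05 to 0.68 (*Csf3r*) and -0.15 to 0.45 (*Mmp8*). For KI against WT they were -0.32 to 0.36 (*Csf3r*), -0.22 to 0.23 (*Mmp8*), -0.19 to 1.13 (*Mmp9*), -0.23 to 0.63 (*Clec4d*) and -1.76 to 0.33 (*Il1r2*). For KI against KO they were -0.33 to 0.045 (*Retnlg*), -0.49 to 0.14 (*Mmp8*), -0.41 to 0.17 (*Trem1*) and -0.19 to 0.0065 (*Hdc*).

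No paired analysis was possible because the groups share no replicate numbers. A fit of only the groups compared was not run over the 3 genotypes. A minimum mean of 20 counts, the unadjusted counts under each alternative, and the overlaps and other gene lists without single libraries were chosen after seeing the data, and the first left 4 of the 10 genes. Most members have few reads, which limits the precision of their fold changes.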

Other observations

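Genes of several of the other lists also differed between genotypes. All 5 B cell genes were called higher in both KO and KI than in WT (edgeR), with medians of 1.65 and 1.84 on the log2 scale, and *Ms4a1* (CD20) had 2.18 ± 0.46 in KO and 1.96 ± 0.46 in KI (SE). Of the other mature neutrophil genes *Padi4*, which citrullinates histones, was called higher (1.60 ± 0.58 in KO, 2.10 ± 0.57 in KI) and *Pglyrp1*, an antibacterial granule protein, was called lower (-1.80 ± 0.29 and -1.29 ± 0.27). Of the neutrophil transcription factors *Cebpd* was called lower in KO (-1.12 ± 0.21, adjusted p 0.00819). Among partners of the members *Fcer1g*, a signalling chain used by Clec4d, was called higher in KO (1.05 ± 0.36, adjusted p 0.169). *Plac8* was called higher in both genotypes and *Ly6c2* in KO, both of the monocyte list. Of the platelet list *Pf4* and *Ppbp* were called higher in both, *Itga2b* higher in KI and *Gp1bb* lower in KO. *Prg2* of the eosinophil list was called lower in KO. The summed erythroid level ran from 406 to 2535 CPM over the libraries and 0 of 7 erythroid genes were called in KO or KI against WT.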
